A study of Rattus norvegicus with 10 samples.

Results

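Potassium, calcium and HCN channel subunits were followed in the RNA of sensory axons from adult and embryonic rats. The members were the 102 genes, of 14217 with a probe set of their own symbol on the array, whose symbols begin with Kcn and a further letter, with Cacna, Cacnb or Cacng, or with Hcn and a digit. They held 167 probe sets, and each gene was represented by the probe set with the highest mean over the 10 arrays. By function 68 members form the pore of a channel, 7 are modifier alpha subunits that have to join other alpha subunits, and 27 are auxiliary. Of the members, 75 belong to potassium, 24 to calcium and 3 to HCN channels.

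The 5 adult and the 5 embryonic arrays carried RNA of axons cut from cultures of dorsal root ganglia, the ganglia that hold the cell bodies of sensory neurons. Embryos were taken at embryonic day 16, and neither strain nor adult age is stated in the labels. Ganglia of either stage were cultured as explants for 4 days in a chamber with compartments, and axons of more than 1 cm were harvested from its outer compartment. The labels name an animal as the source of each sample and call the 5 of a stage biological replicates, without saying whether the animals differ, so the p-values measure the spread between these samples.

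Potassium channels set the resting potential and end the action potential, and calcium channels couple a spike to the release of transmitter and to signalling inside the axon. HCN channels open when the membrane is hyperpolarised and help to set the rhythm of firing. Pore-forming subunits carry the current, and auxiliary subunits change how many channels reach the membrane and how these open and close. In sensory neurons such channels set the threshold of pain and touch fibres, and most of them work as proteins in the axon, whether or not their RNA travels there.

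No member was called as changed between adult and embryonic axons. Of the members, 91 were not above the background level on all 5 arrays of a stage, and this limits what a comparison can show. A background level was set on each array from 28 genes known from liver, pancreas, testis and other unrelated tissues, as the 95th percentile of their 32 probe sets, and it lay between 3.46 and 4.19 on the log2 scale. On all 5 adult arrays 7 of the 102 members were above it, against 11 on all 5 embryonic arrays. The 7 were among the 11. Over all genes the shares were 19.6% for adult and 26.3% for embryonic arrays, against 6.86% and 10.8% of the members. Above it on no array were 46 members (45.1%), compared with 23.3% of all genes. The remaining 45 members passed the level on at least 1 array but on no complete set of 5. These counts, and those given for single genes below, are for the representing probe set unless another is named.

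Array by array, 20, 16, 26, 12 and 18 members were above background on adult replicates 1 to 5, against 24, 28, 21, 20 and 28 on embryonic replicates 1 to 5. The stages overlapped in this count. The arrays also differed within each stage in how widely their values spread. The standard deviation over all probe sets was above the middle of its range on adult replicates 4 and 5 and embryonic replicates 1 and 5, which are called wide here, and below it on the other 6 arrays, called narrow. Adult replicates 4 and 5 held 8032 and 8587 genes above background, the highest numbers among the 10 arrays, but only 12 and 18 channel members. In bulk RNA, fewer axons of a kind and less RNA per axon cannot be told apart.

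**Figure D1:**
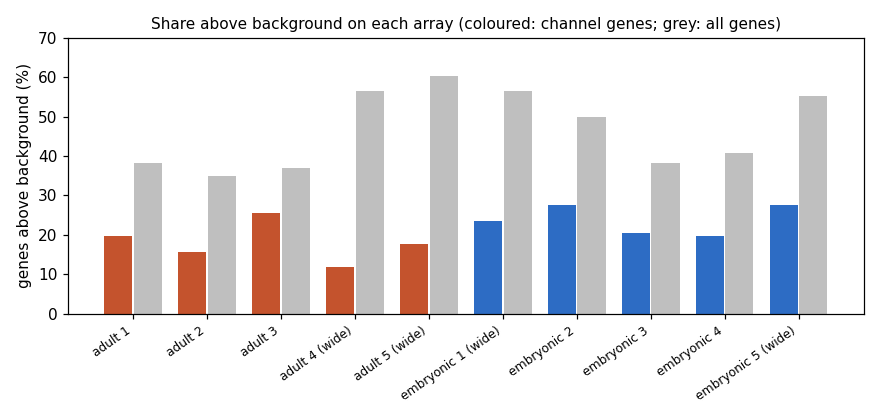
Share of genes above the background level (percent) on each of the 5 adult and 5 embryonic arrays, with coloured bars for the 102 channel subunit genes and grey bars for all genes. On every array the channel share is lower than that of all genes, between 11.8% and 27.5%.

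Sensory neuron markers were detected, with markers of other cells beside them. Of 14 sensory neuron markers, 5 were above background on all adult and 11 on all embryonic arrays, and 5 were called lower in adult samples. Their mean level ranged from 4.42 to 5.61 on adult and from 5.998 to 8.23 on embryonic arrays. Of 20 macrophage and leucocyte markers, 16 were above background on all adult and 2 on all embryonic arrays, and 11 were called higher, with mean levels of 6.81 to 8.63 on adult and 3.34 to 6.14 on embryonic arrays. The mean level of 7 Schwann cell markers was 5.34 to 7.31 on adult and 4.75 to 5.39 on embryonic arrays, and 0 were called, though 2 were higher at an unadjusted p under 0.05. Lists for satellite glia, fibroblasts, endothelium and muscle also had 0 calls by limma, and 1 of 5, 3 of 8, 2 of 6 and 1 of 8 genes of these lists had an unadjusted p under 0.05. Added poly-A control transcripts were at 7.75 to 11.99 on adult and 2.00 to 2.65 on embryonic arrays. Stage and the handling of these controls cannot be told apart, and the part of other cells in the results below was not tested.

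In the fit across all probe sets (limma, Benjamini-Hochberg adjustment, threshold 0.05), 0 of 102 members were called, against 1.26% of all genes. The share of all genes called was 0.612% higher and 0.647% lower in adult samples. At an unadjusted p under 0.05 there were 10 members, 2 higher and 8 lower in adult samples. This was 9.8% of the members and 13.3% of all genes, and by direction 1.96% against 6.28% higher and 7.84% against 7.01% lower. The stages did not overlap for 3 members (2.94%), compared with 3.54% of all genes. With the array spread described above as a block, 18 members (17.6%) had an unadjusted p under 0.05, against 17.1% of all genes. In either fit the members' share with both directions together was near or under that of all genes. Their median difference, adult minus embryonic, was -0.11 on the log2 scale, and that of all genes was -0.00086. The members' median ranged from -0.20 without adult replicate 3 to 0.01 without adult replicate 5, and was 0.065 within the narrow arrays, so its sign was not settled.

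The A-type channels of the Kv4 family and their calcium-binding partners, the KChIPs, held Kcnd1, the member closest to a call. It encodes the Kv4.1 pore, a channel that opens at low voltage and delays the next spike. Its values were 3.14, 3.03, 2.86, 4.51 and 2.64 on adult arrays, against 5.87, 4.55, 8.16, 5.59 and 6.28 on embryonic arrays. Every adult value was below every embryonic one, the nearest pair being 4.51 and 4.55. The means were 3.24 ± 0.74 in adult and 6.09 ± 1.32 in embryonic samples (SD, n = 5 each), a log2 difference of -2.85 ± 0.61 (SE; 95% interval -4.20 to -1.50). The adjusted p was 0.065 by limma, so Kcnd1 missed the threshold. It was above background on all 5 embryonic arrays and on 1 of 5 adult arrays, replicate 4, and the adult level is otherwise not measured. The difference was -3.09 within the 6 narrow and -2.50 within the 4 wide arrays. On the 3 narrow adult arrays Kcnd1 was under the background level, so the narrow value has no measured adult level behind it. The wide value has a single one, that of adult replicate 4. Kcnd1 passed the threshold with dim probe sets left out (adjusted p = 0.029), with 1 mean value for each gene (0.047) and without embryonic replicate 2 (0.045). It otherwise had adjusted p-values of 0.058 to 0.28 over the alternatives tried. With dim probe sets left out, Kcnd1 was kept mainly through its embryonic arrays. It has 1 probe set, so the mean left its values unchanged while fewer features were tested. Neither of these passes is separate support for a change.

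Kcnip3 encodes KChIP3, which binds Kv4 channels and is also known as the transcriptional repressor DREAM. It stood at 5.96, 5.68, 5.49, 5.04 and 5.73 on adult arrays, against 6.13, 6.41, 7.39, 6.16 and 6.07 on embryonic arrays. All 10 values were above background and the stages did not overlap, but the gap between 5.96 and 6.07 was small. The log2 difference was -0.85 ± 0.31 (SE; adjusted p = 0.34). The other probe set of Kcnip3 was above background on no array. Kcnip1, another KChIP, had 3.95 ± 1.54 in adult and 5.54 ± 1.34 in embryonic samples (SD, n = 5 each; adjusted p = 0.58), and was above background on 2 adult and 4 embryonic arrays. Its values overlapped widely, with 6.30 on adult replicate 3 and 3.34 on embryonic replicate 4.

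The other pores and partners were dim or overlapped between the stages. Kcnd2 and Kcnd3, the other Kv4 pores, were above background on no array of either stage. Kcnip2 was at 4.16 ± 0.47 in adult and 4.50 ± 0.85 in embryonic samples (adjusted p = 0.90). Kcnip4 was above background on adult replicate 3 alone, at 5.70. The membrane partners Dpp6 and Dpp10, which speed up Kv4 currents, differed by -0.03 and 0.42 on the log2 scale (adjusted p = 0.99 and 0.76). Dpp6 was above background on 1 array of each stage and Dpp10 on none.

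**Figure D2:**
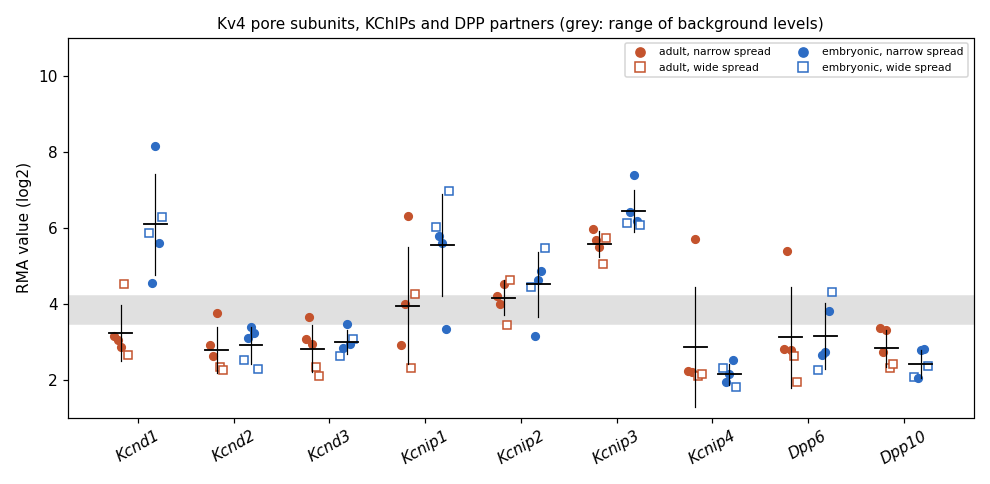
RMA values (log2, vertical axis) of the Kv4 pore subunits, the KChIPs and the partners Dpp6 and Dpp10 on 5 adult (orange) and 5 embryonic (blue) arrays, with circles for narrow and squares for wide arrays, and bars for mean ± SD. The grey band is the range of background levels. Kcnd1 lies under the band on 4 adult arrays and at 4.55 or more on embryonic arrays, while Kcnd2 and Kcnd3 pass their own array's background level nowhere.

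Calcium-activated potassium channels link calcium entry to repolarisation. Kcnmb4, the neuronal beta subunit of the large-conductance BK channel, had 4.85, 4.38, 3.50, 3.49 and 6.77 on adult arrays, against 6.0, 6.60, 6.0, 5.27 and 7.32 on embryonic arrays. Adult replicate 5 stood above 4 of the 5 embryonic arrays, and the stages overlapped. The log2 difference was -1.64 ± 0.63 (SE; adjusted p = 0.38). Without adult replicate 5 it was -2.18 (adjusted p = 0.066). Kcnmb4 was above background on 3 adult and 5 embryonic arrays. Adult replicates 3 and 4 lay under their own background levels, so both differences rest partly on adult values that were not measured. Kcnma1, the BK pore, was above background on 0 adult and 2 embryonic arrays, so the pair could not be compared. Kcnn1, a small-conductance channel, had 6.12, 6.12, 6.56, 4.81 and 4.94 on adult arrays, against 5.84, 6.73, 7.25, 6.96 and 5.79 on embryonic arrays (log2 difference -0.81 ± 0.44, SE; adjusted p = 0.62). The low values of either stage were those of the wide arrays. Kcnt1, a sodium-activated channel, differed by 0.09 on the log2 scale (95% interval -0.52 to 0.70), with values of 4.02 to 5.04 in adult and 3.90 to 4.76 in embryonic samples.

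Promoter sequence was read for the members from RefSeq. Entries on the GRCr8 build were matched for 69 members, in 78 entries. A GC box, GGGCGG or CCGCCC on the reverse strand, stood in the 250 bases before the start in 57.7% of these, compared with 52.3% of 13242 entries of measured genes and 30.5% of all 33469 entries. TATAAA on either strand stood in 5.13%, against 8.03% and 12.9%. The promoters of Kcnmb4 and of the pacemaker channel gene Hcn2 are shown because, among members above background on all embryonic arrays and with such an entry, they had the largest and the smallest stage difference. Capitals mark GC boxes on either strand, and both run 5′ to 3′ on the gene's strand.
Kcnmb4 (chr7:54005102-54005351, minus strand): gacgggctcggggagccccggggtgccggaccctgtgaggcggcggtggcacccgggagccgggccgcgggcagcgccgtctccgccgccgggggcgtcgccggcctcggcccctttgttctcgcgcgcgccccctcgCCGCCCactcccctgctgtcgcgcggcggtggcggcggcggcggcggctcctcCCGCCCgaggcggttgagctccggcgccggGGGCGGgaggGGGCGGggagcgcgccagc
Hcn2 (chr7:10639458-10639707, minus strand): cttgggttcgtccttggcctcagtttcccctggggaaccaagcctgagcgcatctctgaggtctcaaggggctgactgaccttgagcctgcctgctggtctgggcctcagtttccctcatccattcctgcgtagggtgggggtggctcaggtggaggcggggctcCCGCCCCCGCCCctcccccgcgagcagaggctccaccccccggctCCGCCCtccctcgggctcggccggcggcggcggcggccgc
Kcnmb4 had 4 and Hcn2 3 matches, and neither had a TATAAA. A match is a description of these letters and shows no binding.

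Among leak and voltage-gated pores, 2 further genes were above background on all 10 arrays. Kcnk2 encodes TREK-1, a leak channel opened by stretch and heat. It was at 6.73, 7.11, 6.47, 5.62 and 5.59 on adult arrays, against 6.39, 6.86, 7.21, 7.24 and 6.46 on embryonic arrays. The stages overlapped, and the log2 difference was -0.53 ± 0.35 (SE; 95% interval -1.31 to 0.25; adjusted p = 0.74). Kcnh3, an elk-type channel, ranged from 3.94 to 5.57 in adult and from 4.56 to 5.68 in embryonic samples, with a log2 difference of -0.37 (95% interval -1.17 to 0.43).

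Hcn2 contributes to the hyperpolarisation-activated current of sensory neurons. It was at 5.88, 5.52, 5.22, 4.95 and 5.01 on adult arrays, against 5.07, 5.11, 5.59, 5.69 and 5.21 on embryonic arrays. Its mean of 5.32 ± 0.39 in adult and 5.33 ± 0.29 in embryonic samples (SD, n = 5 each) gave a log2 difference of -0.02, and the 95% interval of -0.59 to 0.56 leaves room for changes of that size either way. Hcn4 was above background on 3 adult and 2 embryonic arrays (adjusted p = 0.79), and Hcn3 on 1 adult array alone.

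Calcium channel subunits were largely under the background level. None of the 10 pore-forming alpha1 genes was above it on all arrays of a stage, and 7 were above it on no array. Cacna1b, the N-type channel of sensory terminals, was above background on 1 adult and 2 embryonic arrays, as was the P/Q-type gene Cacna1a. The T-type gene Cacna1h passed on 0 adult and 1 embryonic array, and its other probe set on 1 adult and 3 embryonic arrays. Cacna2d1, the alpha2delta subunit to which gabapentin binds, was at 2.80 ± 0.21 in adult and 3.63 ± 1.33 in embryonic samples (SD, n = 5 each; adjusted p = 0.73) and above background on 0 adult and 2 embryonic arrays. No fold is given for these genes.

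The cytosolic beta subunit Cacnb3, which brings alpha1 subunits to the membrane, was the calcium channel gene with the smallest p. It had 3.99, 3.98, 4.49, 3.34 and 3.35 on adult arrays, against 5.04, 4.63, 4.84, 4.06 and 5.53 on embryonic arrays. Only embryonic replicate 4 lay within the adult range. The log2 difference was -0.99 ± 0.33 (SE; adjusted p = 0.28), with 1 adult array and all 5 embryonic arrays above background. It was -0.36 within the narrow arrays and -1.94 within the wide arrays (adjusted p = 0.80 and 0.12). Both wide adult values were under the background level, and of the narrow ones only that of adult replicate 3 was above it. The narrow difference therefore rests mostly, and the wide one wholly, on adult values that were not measured. Cacnb1 was above background on 4 arrays of each stage, and Cacnb2 and Cacnb4 on 0 arrays. Cacng2, or stargazin, which works chiefly as a partner of AMPA receptors, was at 4.21 to 6.36 in adult and 4.76 to 6.47 in embryonic samples (log2 difference -0.23, 95% interval -1.24 to 0.79). Its other probe set was above background on 0 adult and 3 embryonic arrays (adjusted p = 0.31).

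Kcnab1 and Kcnab2 are cytosolic beta subunits of Kv1 channels. Kcnab1 was at 1.74, 2.08, 2.18, 2.18 and 4.45 on adult arrays, against 8.56, 6.54, 2.66, 2.54 and 7.88 on embryonic arrays. It was above background on adult replicate 5 alone and on embryonic replicates 1, 2 and 5, and embryonic replicates 3 and 4 lay inside the adult range. The fitted log2 difference of -3.11 had an SE of 1.2 (adjusted p = 0.38) and rests on an adult level that 4 of 5 arrays did not measure. The other probe set of Kcnab1 was above background on 0 arrays. Kcnab2 was above background on 4 adult and 5 embryonic arrays and differed by -0.16 (95% interval -1.37 to 1.06). The Kv1 pores they join were dim. Kcna1 and Kcna4 were above background on 0 arrays, Kcna2 on 1 adult array (its other probe set on 1 adult and 2 embryonic arrays), and Kcna6 on 1 adult and 3 embryonic arrays.

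**Figure D3:**
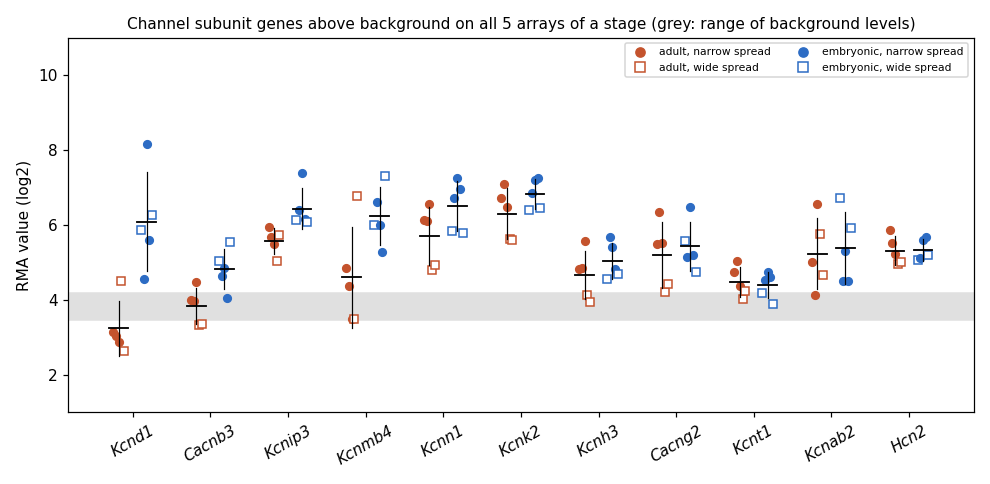
RMA values (log2, vertical axis) of the 11 members above background on all 5 arrays of a stage, ordered by p, on adult (orange) and embryonic (blue) arrays, with circles for narrow and squares for wide arrays, bars for mean ± SD and a grey band for the range of background levels. Kcnd1 and Kcnip3 are the genes whose stages do not overlap.

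Higher values in adult samples were seen for 2 members at an unadjusted p under 0.05, both in genes that passed the background level on 1 adult and 0 embryonic arrays. Kcns3, a modifier of Kv2 channels, was at 4.78, 3.52, 3.77, 3.12 and 3.11 on adult arrays, against 2.40, 2.46, 2.34, 2.84 and 2.42 on embryonic arrays. The stages did not overlap (adjusted p = 0.17), but a single adult value, 4.78, was above background, so no fold is given. Kcnn4, the intermediate-conductance calcium-activated channel of leucocytes, was at 3.04 ± 0.77 in adult and 2.02 ± 0.16 in embryonic samples (SD, n = 5 each; adjusted p = 0.30) and above background on 1 adult array. It stood on a list of 6 channels known from macrophages and leucocytes, of which 0 were called by limma and Kcnn4 alone had an unadjusted p under 0.05, while 11 of the 20 leucocyte markers were called higher. Of the other 5, Kcne3 was above background on 3 adult and 1 embryonic arrays and Kcnk6 on 2 adult and 1 embryonic arrays. Kcnk13 was above it on 1 adult array, and Kcna3 and Kcnj2 on none. The second probe set of Kcnk6 was above background on 3 adult and 0 embryonic arrays (adjusted p = 0.23). Kcnj10, the inward rectifier of satellite glia, was above background on 0 arrays, at 1.99 ± 0.44 in adult and 1.95 ± 0.45 in embryonic samples.

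By subunit class, 43 of 68 pore-forming genes had a fitted difference below 0, as had 17 of 27 auxiliary and 3 of 7 modifier genes, compared with 50.1% of all genes. Few of these differences were measured above background. The median log2 difference was -0.09 for pore-forming, -0.16 for auxiliary and 0.03 for modifier genes. On leaving out 1 array the medians ranged from -0.19 to 0.02 for pore-forming, -0.24 to -0.03 for auxiliary and -0.05 to 0.12 for modifier genes, with the highest pore-forming and auxiliary values without adult replicate 5. Above background on all 5 arrays of a stage were 6 pore-forming genes (Kcnd1, Kcnn1, Kcnk2, Kcnh3, Kcnt1 and Hcn2), 5 auxiliary genes (Cacnb3, Cacng2, Kcnab2, Kcnip3 and Kcnmb4) and 0 modifiers. At an unadjusted p under 0.05, 4 pore-forming and 4 auxiliary genes were lower, and 1 pore-forming and 1 modifier gene were higher. Outside those named above these were Kcnb2 (0 adult and 1 embryonic array above background) and Kcnc1 (0 and 2), which like the BK pore were mostly dim.

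Medians of the subfamilies are given as a description, since most of their genes were dim. The 15 inward rectifiers had a median log2 difference of 0.02 and a lowest unadjusted p of 0.078. The 11 leak channels of the K2P family had a median of -0.14, the 8 EAG-type channels -0.08 and the 10 calcium channel pores -0.10. Among smaller subfamilies the median was -0.64 for the 5 calcium-activated and Slo channels and -0.60 for the 4 KChIPs. It was -0.56 for the 4 calcium channel beta subunits and 0.35 for the 4 KCNE subunits. Nearer to 0 were the 6 Kv1 channels at 0.13 and the 7 modifier genes at 0.03. The Kv7 genes Kcnq1, Kcnq3 and Kcnq5, of a family whose neuronal members carry the M-current, had a median of 0.11, and Kcnq5 was above background on 1 array of each stage, and Kcnq1 and Kcnq3 on none (another probe set of Kcnq3 passed on 1 embryonic array). None of the 19 subfamilies held a called gene. Among 16 measured channel genes known from sensory neurons, 0 were called by limma and 2, Kcnc1 and Kcnma1, had an unadjusted p under 0.05, both lower in adult samples. Of the 16, 2 were above background on all arrays of each stage and 7 on none.

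**Figure D4:**
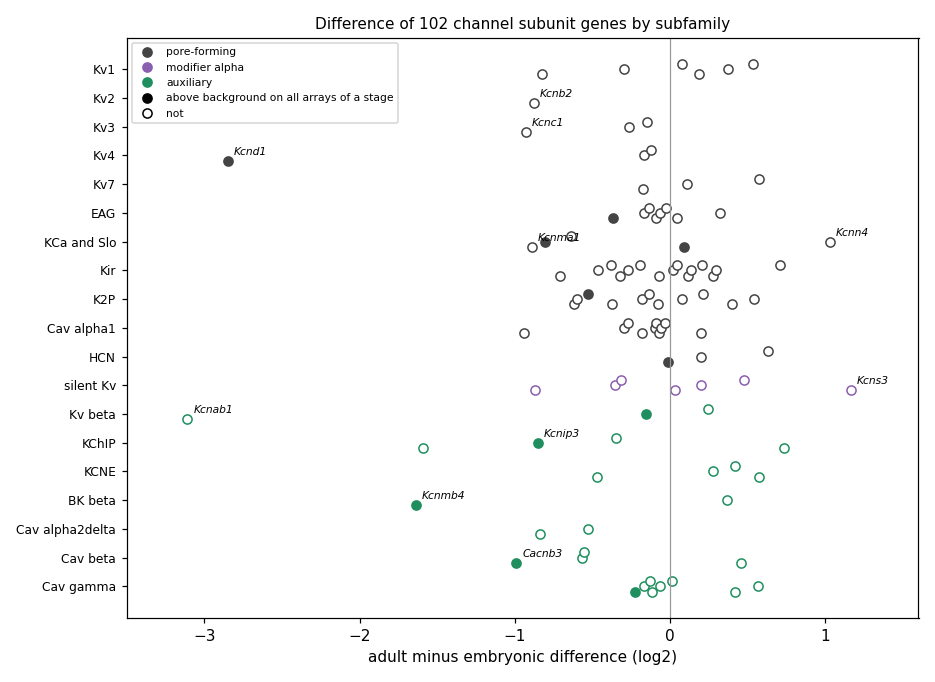
Adult minus embryonic difference (log2, horizontal axis) of each of the 102 members, by subfamily from pores at the top to auxiliary subunits at the bottom. Filled points are the 11 genes above background on all arrays of a stage, and names mark an unadjusted p under 0.05. Kcnd1 and Kcnab1 stand apart on the left, and most points lie within 1 of 0.

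Within each stage, many members followed the spread of the arrays. Of the 102, 68 (66.7%) were higher on narrow than on wide arrays in both stages, compared with 32.5% of all genes. Most members were dim, and the background level was also higher on narrow arrays. It was 4.02 to 4.19 against 3.46 and 3.63 in adult samples, and 3.67 to 4.19 against 3.55 in embryonic samples. The part of dimness in this pattern was not tested. Of the 11 members above background on all arrays of a stage, 7 (63.6%) were higher on narrow arrays in both stages. The members' median difference, narrow minus wide, was 0.66 among adult and 0.32 among embryonic arrays, against -0.23 and 0.02 over all genes. Over the 11 members it was 0.59 and 0.45. For Kcnn1 it was 1.39 in adult and 1.17 in embryonic samples, for Kcnk2 1.16 and 0.68, and for Hcn2 0.56 and 0.33. For these genes the gaps between narrow and wide arrays were larger than the stage difference. Kcnmb4 ran the other way in both stages (-0.89 and -0.70). Each stage held 3 narrow and 2 wide arrays, so the numbers of either kind were the same in both.

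**Figure D5:**
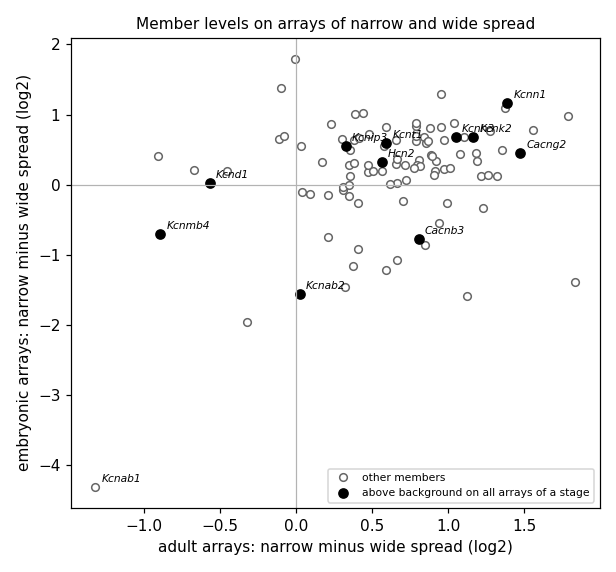
Difference between narrow and wide arrays (log2) among adult arrays (horizontal axis) and embryonic arrays (vertical axis) for the 102 members. Most points lie in the upper right. Of the 3 points at the lower left Kcnab1 is the farthest out, at -1.32 among adult and -4.30 among embryonic arrays.

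The other probe sets of members gave no call either. Among 65 of them 0 were called by limma and 3 had an unadjusted p under 0.05, and 0 were above background on all arrays of a stage. On at least 1 array 18 of them were. Each of the 11 members above background on all arrays of a stage therefore reached this with a single probe set. Among them Kcnip3, Kcnab2, Kcnk2, Kcnt1 and Cacng2 have further probe sets.

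Genes that anchor or assist these channels but carry other names were read from a list of 40, of which 35 were measured. Of these 0 were called by limma, and 8 were lower and 0 higher at an unadjusted p under 0.05. Over all genes 7.01% were lower and 6.28% higher at that level. Above background were 4 of the 35 on all adult and 10 of the 35 on all embryonic arrays, compared with 19.6% and 26.3% of all genes. The embryonic share was thus near that of all genes and the adult share under it. Cntnap2, or Caspr2, which clusters Kv1 channels beside the nodes of myelinated axons, was at 2.85 ± 0.65 in adult and 5.21 ± 1.19 in embryonic samples (SD, n = 5 each; adjusted p = 0.092). It was above background on 0 adult and 5 embryonic arrays. With adult values raised to the background level, its mean was 2.47-fold lower in adult samples. That fold has no error attached, and the 95% interval of the fitted log2 difference was -3.58 to -1.14. Stac, an adaptor of calcium channels, was at 3.38 ± 0.78 in adult and 6.98 ± 2.03 in embryonic samples (adjusted p = 0.10), with 2 adult and 4 embryonic arrays above background. Ank3 encodes ankyrin-G and Sptbn4 beta-IV spectrin, the scaffold that holds Kv7 and sodium channels at nodes. Ank3 differed by -1.51 ± 0.44 on the log2 scale (SE; adjusted p = 0.19) and was above background on 2 adult and 5 embryonic arrays. Sptbn4 was above background on 0 adult and 5 embryonic arrays, and its stages overlapped (adjusted p = 0.19). With adult values raised to the background level, its mean was 1.89-fold lower in adult samples. This fold has no error attached either, and the 95% interval of the fitted log2 difference was -2.81 to -0.60. These partners did not pass the threshold, whereas 5 of the sensory neuron markers were called lower in adult samples, and their part in these values was not tested.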

How the data were processed

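RNA of adult and embryonic axons was measured on 10 Affymetrix whole-genome rat arrays. Labelling was by in vitro transcription, per the labels' protocols. The authors deposited log2 values from RMA, per the submitters' processing notes; no software or option is named there, and base 2 was taken from the range of the values. RMA compresses differences between dim probe sets. The number of arrays limits the precision.

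Of 31099 probe sets, 57 controls were left out of the fit. The platform annotation gives 20826 probe sets 1 symbol, 436 several and 9780 none, and gene numbers of all 102 members matched the RefSeq table. The difference between the stages, adult minus embryonic, came from a two-sided limma test (lmFit, eBayes; version 3.58.1, run in R 4.3.3) with Benjamini-Hochberg adjustment over 31042 probe sets, no pseudocount and no filter. Figures used Python 3.11.15, pandas 2.3.3 and matplotlib 3.10.9. On simulated data of 31042 probe sets for this comparison, 14% of changes of 1 on the log2 scale, 54% of 2, 82% of 4 and 96% of 6 were recovered, with 6 false calls among 129.

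The members and gene lists were chosen with earlier results of these data known. Named members were those called, the up to 12 higher and 12 lower of smallest p above background on all arrays of a stage, those there without overlap, and fixed lists of sensory and leucocyte channels. Kcns3, Kcnab1, Kcnip1, Kcnb2 and others were named after their values were seen. Alternatives were other scalings, a filter, variance models, array weights, blocks, other probe set choices and background levels, and each array left out in turn.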

Additional observations from a re-analysis of the deposited data

Results flagged for a closer look

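Of 22 sets of 5 values tested for the 11 members above background on all arrays of a stage, 2 held an array far from the others by Dixon's test, and chance gives about 5% of sets. Kcnd1 was at 4.51 on adult replicate 4, with 3.14 the next highest adult value. Kcnip3 was at 7.39 on embryonic replicate 3, with 6.41 the next highest embryonic value.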

How the results depend on the processing

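The call of 0 members higher in adult samples was the same under the 22 alternatives. For members lower in adult samples, 1 was called with dim probe sets left out and 1 with the mean of a gene's probe sets, where fewer features were tested, and 0 to 1 on leaving out 1 array; in each case it was Kcnd1. Members at an unadjusted p under 0.05 numbered 10, but 2 with dim probe sets left out (17 members tested), 18 with the array spread as a block and 7 to 12 on leaving out 1 array. All genes called numbered 179, but 309 with the filter, 276 with the spread as a block and 0 within the wide arrays (4 arrays), and 101 to 248 on leaving out 1 array (101 without adult replicate 4, 117 without adult replicate 1, and 117, 106 and 107 without embryonic replicates 2, 3 and 5). With the filter the auxiliary median was -0.70, over the auxiliary genes among the 17 members left. Kcnd1 passed the filter with 1 adult and 5 embryonic arrays above background, so a gene can enter through its higher stage alone. This median therefore cannot be set against that of all 27 auxiliary genes. Members above background in adult samples numbered 14 at the 90th percentile of the background genes, and in embryonic samples 17 with 4 of 5 arrays required.

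Directions reversed for uncalled genes of small difference, where the cause was not tested. Hcn2 differed by 0.15 under quantile scaling, 0.18 under cyclic loess, 0.10 with array weights and 0.079 within the narrow arrays. Kcnab2 differed by 0.038 under cyclic loess, 0.48 within the narrow arrays and 0.052 with the mean of its probe sets. Cacng2 differed by 0.18 within the narrow arrays and Kcnt1 by -0.10 with the mean of its probe sets. On leaving out 1 array Hcn2 ranged from -0.16 to 0.076, Kcnab2 from -0.49 to 0.17, Cacng2 from -0.52 to 0.034 and Kcnt1 from -0.0498 to 0.20.

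Whether the replicate numbers pair the samples is not known. Correlations of same-numbered deviations ran from -0.12 to 0.28, and the spread of the arrays enters them, so they cannot decide it. The replicate block gave Kcnd1 an adjusted p of 0.13 and left the members at 0 calls.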
